A study of Mus musculus with 3 samples.

Results

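Resident-like macrophages were studied in single-cell RNA libraries of the mouse aorta. These were the cells of a macrophage gate that held at least 5 unique molecular identifiers (UMIs, each marking 1 captured transcript) of Lyve1, Folr2, F13a1, Cbr2 and Cd163 together and fewer than 5 of Gpnmb, Spp1 and Fabp5. The gate took cells with at least 200 detected genes, under 20% mitochondrial UMIs, at least 5 UMIs of C1qa, C1qb and C1qc together, and Acta2 plus Tagln under 1% of UMIs. The members were therefore chosen on their measured values of these genes, and the levels of those genes below are a description. In all, 358 cells met the rule, of 650 gated macrophages and 26757 cells that passed the filter.

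Western diet, with 42% fat and 0.2% cholesterol, was given for 16 weeks from 12 weeks of age to male mice on a C57BL/6J background whose mouse Apoe gene had been replaced by human APOE2, APOE3 or APOE4. Whole aortas, from the arch to the iliac bifurcation, were digested with enzymes, and the cells were pooled by genotype. The APOE2 pool came from 6 mice, the APOE3 pool from 5 and the APOE4 pool from 7. Each pool gave 1 droplet library, so there was no replicate of any genotype, the mice of a pool cannot be told apart, and no difference between genotypes was tested. The members held 1847483 UMIs in the APOE2 library (197 cells), 639545 in the APOE3 library (80 cells) and 793446 in the APOE4 library (81 cells), with medians of 8362, 8030.5 and 8425 UMIs per cell. No cell barcode was shared between members of different libraries, although 26, 23 and 30 of all deposited barcodes were shared between the pairs APOE2 and APOE3, APOE4 and APOE3, and APOE4 and APOE2.

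Macrophages that live in the artery wall in the absence of disease lie mainly in the adventitia, and many of them carry LYVE1, a hyaluronan receptor. They take up debris and modified proteins through scavenger and lectin receptors, produce chemokines and complement proteins, and can renew themselves locally. In the plaque, macrophages loaded with lipid instead express genes such as Gpnmb, Spp1 and Trem2, and cells of monocyte origin often carry more major histocompatibility complex (MHC) class II.

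Macrophage genes that the rule did not use were also read in the members. The gate required C1q transcripts, so a comparison with cells outside it bears on macrophage identity only. Other gated macrophages are set beside the members further below. Mrc1, the mannose receptor CD206, was listed at 1676 counts per 1e+06 UMIs of the class (CPM) in APOE2 members, 2585 in APOE3 and 1510 in APOE4, against 3.25, 1.73 and 1.53 CPM in the cells outside the macrophage gate of the same libraries. Pf4, a chemokine abundant in resident macrophages, stood at 3222, 3365 and 2861 CPM. Core macrophage genes were present in each library, such as Csf1r, the receptor for colony stimulating factor 1, at 679, 984 and 740 CPM, and Adgre1, which encodes F4/80, at 486, 561 and 717 CPM. Timd4, a phosphatidylserine receptor of long-lived macrophages, was lower, at 90.4, 122 and 85.7 CPM.

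Lyve1 is also a marker of lymphatic endothelium, so other markers of that and of further cell types were read in the same cells. Of 5 lymphatic endothelial markers, 3 in APOE2, 4 in APOE3 and 2 in APOE4 were at 0, and their summed level was 9.74, 4.69 and 12.6 CPM. Its most abundant gene was Prox1 in APOE2 and APOE3 (8.12 and 4.69 CPM) and Pdpn in APOE4 (7.56 CPM). The 8 endothelial markers summed to 15.7, 37.5 and 46.6 CPM, the 6 T lymphocyte markers to 40.1, 1.56 and 7.56 CPM, and the 7 dendritic cell markers to 18.4, 25.02 and 25.2 CPM. The 12 monocyte genes summed to 1231, 582 and 872 CPM, with S100a6 the most abundant in each library. Of these 12, Ly6c2 and Chil3, genes of inflammatory monocytes, were at 0 in the members of all 3 libraries. The 10 smooth muscle markers other than Acta2 and Tagln summed to 456, 342 and 326 CPM. Fibroblast transcripts differed between libraries, with 1771 CPM over 9 genes in APOE2, 272 in APOE3 and 1076 in APOE4, led by Dcn in APOE2 and APOE4 and by Serpinf1 in APOE3, and 10 APOE2 and 2 APOE4 members with at least 10 UMIs of Dcn, Col1a1, Col1a2 and Col3a1 held 96.4% and 93.0% of the UMIs of these 4 genes.

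The 5 genes of the rule were found at the following levels. Lyve1 (chr7:110850607-110863239, minus strand) was listed at 999 CPM in APOE2, 552 in APOE3 and 347 in APOE4. F13a1, the A subunit of coagulation factor XIII (chr13:36867178-37050244, minus strand), was the most abundant of the 5 by UMIs, at 2496, 2081 and 1462 CPM. Folr2, a folate receptor (chr7:101839988-101857194, minus strand), stood at 737, 746 and 589 CPM. Cbr2, a carbonyl reductase (chr11:120729489-120732114, minus strand), stood at 878, 685 and 643 CPM. Cd163, the scavenger receptor for haemoglobin bound to haptoglobin (chr6:124304656-124330527, plus strand), stood at 513, 554 and 358 CPM. The APOE4 level was the lowest of the 3 for each of the 5 genes. All positions are from the GENCODE vM21 annotation of GRCm38 (mm10), the build of the files.

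The rule selects cells for high values, so part of these levels comes from the selection itself. When members were chosen on a random 50% of the UMIs and the levels were read from the remaining UMIs, Lyve1 was listed at 1114 CPM in APOE2 (95% interval 1042 to 1190, from counting error only), 636 in APOE3 (547 to 737) and 427 in APOE4 (360 to 503). This choice gave 160, 63 and 62 members, fewer than the whole rule, so these levels and those above come from different sets of cells. The order of the 3 libraries for Lyve1 was also found in UMIs that the rule did not use. In the same UMIs, APOE4 was the lowest for Folr2, F13a1 and Cd163 too, but not for Cbr2, which was at 969, 693 and 701 CPM in APOE2, APOE3 and APOE4. Cd163 kept its order, with APOE3 first, at 585, 619 and 412 CPM, whereas APOE2 and APOE3 changed places for Folr2, at 831 CPM (769 to 897) and 813 (712 to 925), with intervals that overlapped.

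Cbr2 was the only one of the 5 that was common outside macrophages. In cells thinned to 2000 UMIs, Cbr2 was detected in 38.9%, 45.0% and 40.4% of smooth muscle cells without C1q transcripts in APOE2, APOE3 and APOE4, against 0.000% for Cd163 in each library and at most 0.889% for Lyve1, Folr2 and F13a1. With Cbr2 left out of the sum, 183 of 197 APOE2, 80 of 80 APOE3 and 73 of 81 APOE4 members still held at least 5 UMIs of the other 4 genes.

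Sequences just upstream of the members' genes were read from RefSeq (GRCm38.p6), which gave 6 promoter windows for 4 of the 5 genes of the rule. The windows run from 250 bases before to 50 bases after a transcription start site. PU.1, a transcription factor that macrophages need, binds the letters GAGGAAGT, which were searched on both strands. They occurred in 1052 of 32851 promoters (3.20%), in 1 of the 6 windows of the rule genes and in 3 of 20 windows of resident macrophage genes outside the rule. F13a1 is shown as the gene of the rule with a match, and Pf4 as 1 of the 2 genes outside the rule with a match, the other being Selenop. The match is in capitals. The F13a1 window is 1 of its 2 windows, chr13:37049164-37049463 on the minus strand, where the match begins 14 bases downstream of the start site. The Pf4 window is chr5:90772185-90772484 on the plus strand, where the match lies on the opposite strand and begins 10 bases upstream of the start site. The MAF half-site, TGCTGA, read the same way, occurred in 19.5% of all promoters, in 3 of the 6 windows and in 6 of the 20. A match is a description of the letters and was not tested as a binding site.
F13a1: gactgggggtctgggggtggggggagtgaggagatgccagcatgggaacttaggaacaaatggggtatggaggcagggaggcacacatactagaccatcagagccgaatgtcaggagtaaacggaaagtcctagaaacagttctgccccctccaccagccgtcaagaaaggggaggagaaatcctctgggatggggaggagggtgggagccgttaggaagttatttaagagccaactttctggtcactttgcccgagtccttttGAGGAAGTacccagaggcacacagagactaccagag
Pf4: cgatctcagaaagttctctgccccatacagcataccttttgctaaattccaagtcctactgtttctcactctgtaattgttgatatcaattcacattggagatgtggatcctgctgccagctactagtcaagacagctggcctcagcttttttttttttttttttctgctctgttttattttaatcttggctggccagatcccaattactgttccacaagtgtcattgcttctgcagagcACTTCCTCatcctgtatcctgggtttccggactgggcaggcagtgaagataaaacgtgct

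In the APOE2 library, 197 resident-like cells made up 1.67% of all cells (exact 95% interval 1.45 to 1.92). The shares were 1.19% (0.943 to 1.48), from 80 cells, in APOE3 and 0.982% (0.781 to 1.22), from 81 cells, in APOE4. The share in APOE2 was higher than in APOE3 by 0.49 on the log2 scale (0.11 to 0.89), and that in APOE4 was lower than in APOE2, with a log2 ratio of -0.77 (-1.16 to -0.39). APOE4 and APOE3 had a log2 ratio of -0.27 (-0.74 to 0.19). Among gated macrophages the order of the libraries was another, with 50.6% resident-like cells in APOE2 (45.6 to 55.7), 65.6% in APOE3 (56.4 to 73.9) and 58.3% in APOE4 (49.6 to 66.6). The exact intervals of the APOE2 and APOE3 shares did not overlap. The log2 ratio of APOE2 to APOE3 on this basis was -0.37 (-0.75 to 0.02), and the intervals of the other ratios also included 0. The intervals of the ratios treat members as counts and not as parts of the gate, and are wide for shares this large. The whole gate was larger in APOE2, with 389 cells against 122 in APOE3, a log2 ratio of its share of 0.87 (0.57 to 1.17). The number of pooled mice differed between the libraries, and its part in these shares was not tested.

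**Figure D1:**
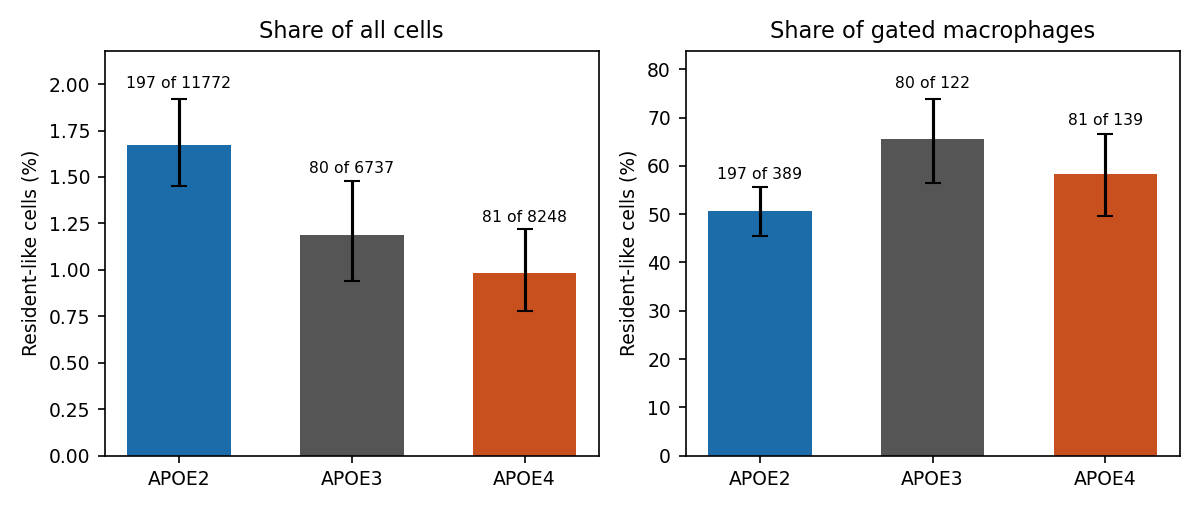
Share of resident-like cells (%) among all cells that passed the filter (left) and among gated macrophages (right) in the APOE2, APOE3 and APOE4 libraries. Bars are 1 library each, with exact 95% counting intervals; APOE2 had the largest share of all cells (1.67%) and the smallest share of gated macrophages (50.6%).

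Cells close to the limit of 5 UMIs were few. With 5 or 6 UMIs of the rule genes there were 17 members in APOE2, 4 in APOE3 and 9 in APOE4, and 29, 7 and 11 gated cells fell just outside with 3 or 4 UMIs. Mrc1 in the cells just inside was 924, 2411 and 937 CPM, and in those just outside 780, 2119 and 633 CPM. Pf4 was 1178, 1020 and 1383 CPM just inside and 1104, 883 and 1830 CPM just outside. Mrc1 was thus higher just inside the limit in each library, while Pf4 in APOE4 was higher just outside it. Members held a median of 33, 26.5 and 26 UMIs of the 5 genes, and all 5 genes were detected in 92 of 197, 39 of 80 and 29 of 81 cells.

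The remaining gated macrophages were mostly cells low in both gene sets, with under 5 UMIs of the resident and of the foam genes (149 in APOE2, 41 in APOE3 and 57 in APOE4, here called low-both macrophages). They were shallower than the members, with medians of 5635, 5510 and 2248 UMIs. Genes of resident macrophages and certain chemokines were higher in the members than in low-both macrophages, and MHC class II genes were lower. Genes of other cells and of dissociation also differed between the classes, not in the same direction in every library. Fibroblast markers summed to 1459, 3603 and 4026 CPM in low-both macrophages of APOE2, APOE3 and APOE4, against 1771, 272 and 1076 CPM in the members. Erythroid genes, mostly Hbb-bs, summed to 7770, 23.2 and 87.6 CPM against 265, 15.6 and 106 CPM, and immediate early and dissociation genes, with Hspa1a the most abundant, to 33134, 58468 and 29316 CPM against 25756, 35400 and 30470 CPM. Their part in the differences was not tested. Of 5296 genes with at least 20 UMIs over both classes in each library, 119 (2.25%) were at least 2-fold higher in the members in all 3 libraries and 58 (1.1%) were at least 2-fold lower. No test was made, because the classes were cut from the same counts.

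Of 25 resident macrophage genes outside the rule, 23 passed the minimum. Of these, 17 were at least 2-fold higher in the members in all 3 libraries, beside 2.25% of all genes. None was at least 2-fold lower, and the median log2 ratio was 2.10, against 0.16 over all genes. Mrc1 was listed at 379, 762 and 357 CPM in low-both macrophages, and the log2 ratios in the 3 libraries were 2.14, 1.76 and 2.07. Stab1, a scavenger receptor that clears acetylated lipoproteins and matrix proteins, gave 1.61, 1.72 and 2.06. Maf, a transcription factor of resident macrophages, gave 1.86, 1.92 and 1.79. The ratios of these 3 genes lay close together in the 3 libraries.

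The 8 genes highest over low-both macrophages by their smallest ratio were Retnla, Cd209f, Ccl24, Ccl8, Clec10a, Colec12, Wwp1 and C4b. Retnla encodes a secreted resistin-like protein of alternatively activated macrophages, Cd209f and Clec10a are C-type lectins, Colec12 is a scavenger receptor with a collagen stem, and C4b is complement C4. Clec10a was listed at 278, 181 and 139 CPM in the members and 11.1, 27.9 and 21.0 CPM in low-both macrophages. Wwp1, a ubiquitin ligase, was found in 165 of 197, 70 of 80 and 65 of 81 members. Retnla in contrast came from few cells, namely 16, 7 and 8 members, and the 3 cells with the most held 83.0%, 92.5% and 92.4% of its UMIs.

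Chemokine genes were split. Of 17 on the list, 16 passed the minimum. Of these, 6 were at least 2-fold higher in the members in all 3 libraries (Ccl6, Ccl7, Ccl8, Ccl9, Ccl24 and Pf4), beside 2.25% of all genes. Another 2 were at least 2-fold lower (Ccl4 and Cxcl16), beside 1.1% of all genes. Ccl8, a monocyte and eosinophil attractant, was listed at 632, 688 and 470 CPM against 72.9, 107 and 28.0 CPM in low-both macrophages. Ccl8 came from 70, 23 and 28 members, and the 3 with the most held 82.7% of its UMIs in APOE3. Ccl24, an eosinophil attractant also known as eotaxin-2, stood at 186, 446 and 284 CPM against 5.06, 55.7 and 17.5 CPM. Ccl4, an inflammatory chemokine, was abundant in both classes but lower in the members, at 4929, 5529 and 6042 CPM against 10669, 12436 and 13260 CPM.

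MHC class II genes were lower in the members of each library. Of 8 antigen presentation genes, 7 passed the minimum. Of these, 5 were at least 2-fold lower in all 3 libraries (H2-Aa, H2-Ab1, H2-Eb1, Cd74 and Ciita), beside 1.1% of all genes. None was at least 2-fold higher, and the median log2 ratio was -1.67, against 0.16 over all genes. H2-Ab1, the beta chain of I-A, was listed at 753, 1063 and 902 CPM in the members and 2565, 3292 and 3374 CPM in low-both macrophages. Cd74, the invariant chain, stood at 2801, 4522 and 3713 CPM against 9877, 13815 and 11224 CPM. Ciita, the transactivator of the class II genes, had log2 ratios of -2.03, -1.23 and -2.01.

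The 8 genes lowest by the same rule were Adgrl3, Mmp12, Gngt2, Rgs1, Il1b, Cadm1, Glipr1 and Scimp. Adgrl3, an adhesion receptor, had 0 UMIs in the members of all 3 libraries and 191, 529 and 182 CPM in low-both macrophages. Mmp12, macrophage elastase, was listed at 4.87, 0 and 5.04 CPM against 491, 232 and 305 CPM. Il1b, the inflammatory cytokine interleukin-1 beta, stood at 90.9, 73.5 and 69.3 CPM against 663, 506 and 1135 CPM. Of 29 foam and lipid genes outside the rule, 23 passed the minimum. Of these, 4 were at least 2-fold lower in all 3 libraries (Cd9, Lpl, Lgals3 and Mmp12), beside 1.1% of all genes. Another 1, Apoe, was at least 2-fold higher, beside 2.25% of all genes. The mouse Apoe gene had been replaced, so the transcripts that aligned to it in these mice are not a measure of an intact mouse gene.

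**Figure D2:**
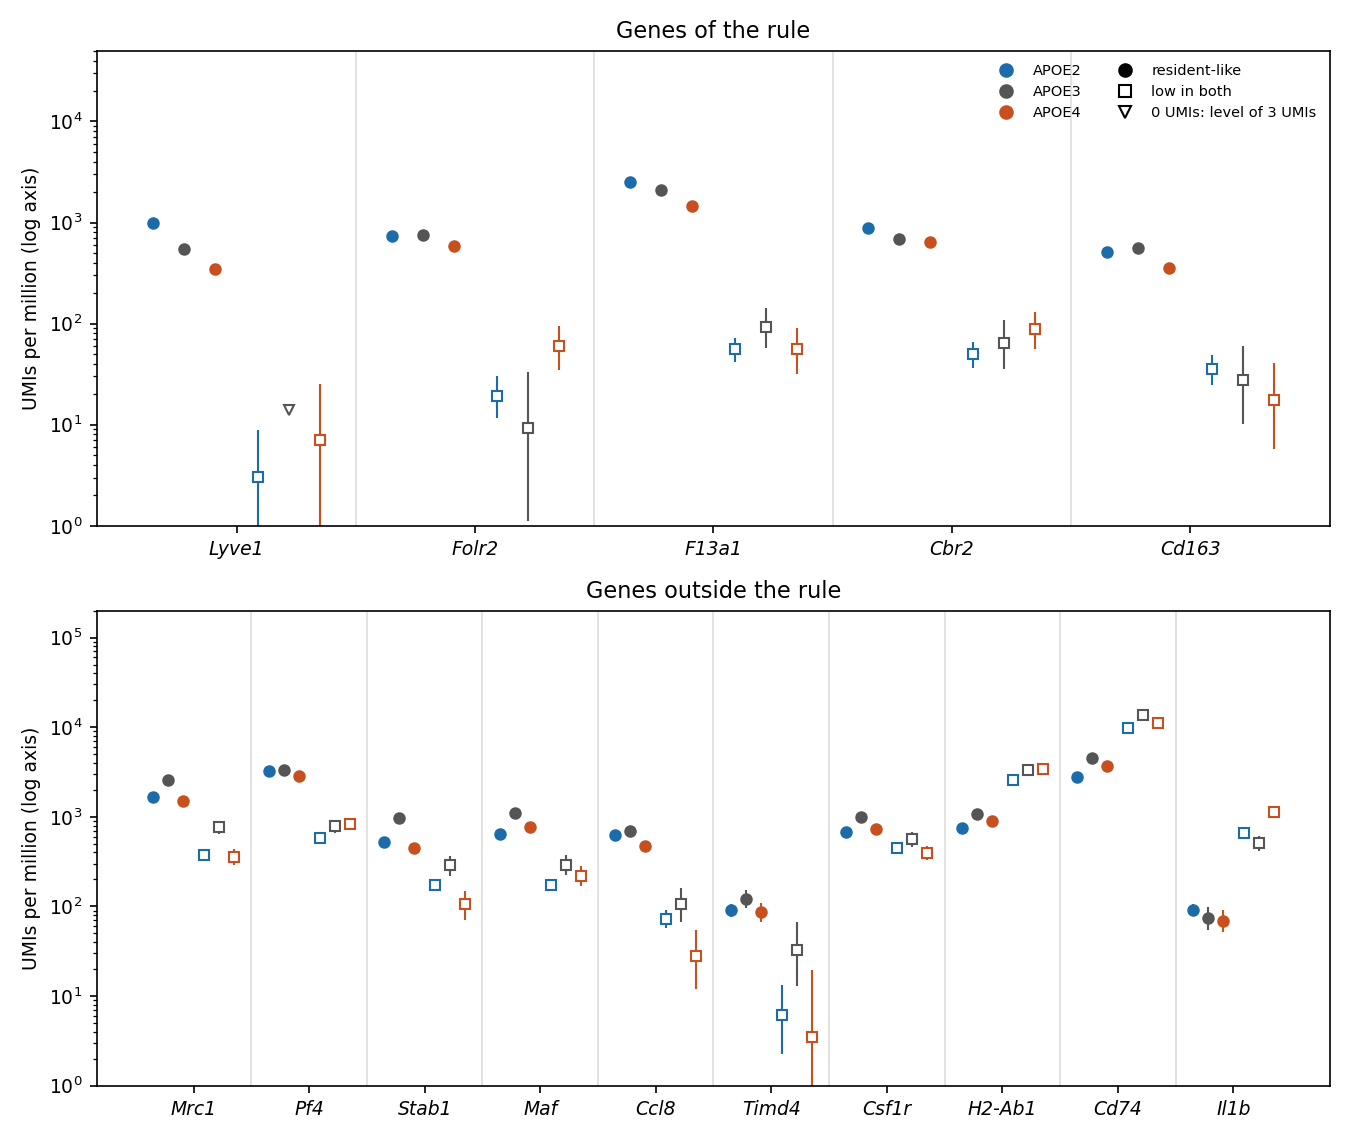
Level of each gene in CPM (log axis) in resident-like cells (filled circles) and low-both macrophages (open squares) of the 3 libraries, for the 5 genes of the rule (top) and 10 other genes (bottom), with 95% counting intervals; open triangles mark the level of 3 UMIs where none was found. Mrc1, Pf4, Stab1, Maf, Ccl8 and Timd4 were higher in resident-like cells in each library, and H2-Ab1, Cd74 and Il1b lower.

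**Figure D3:**
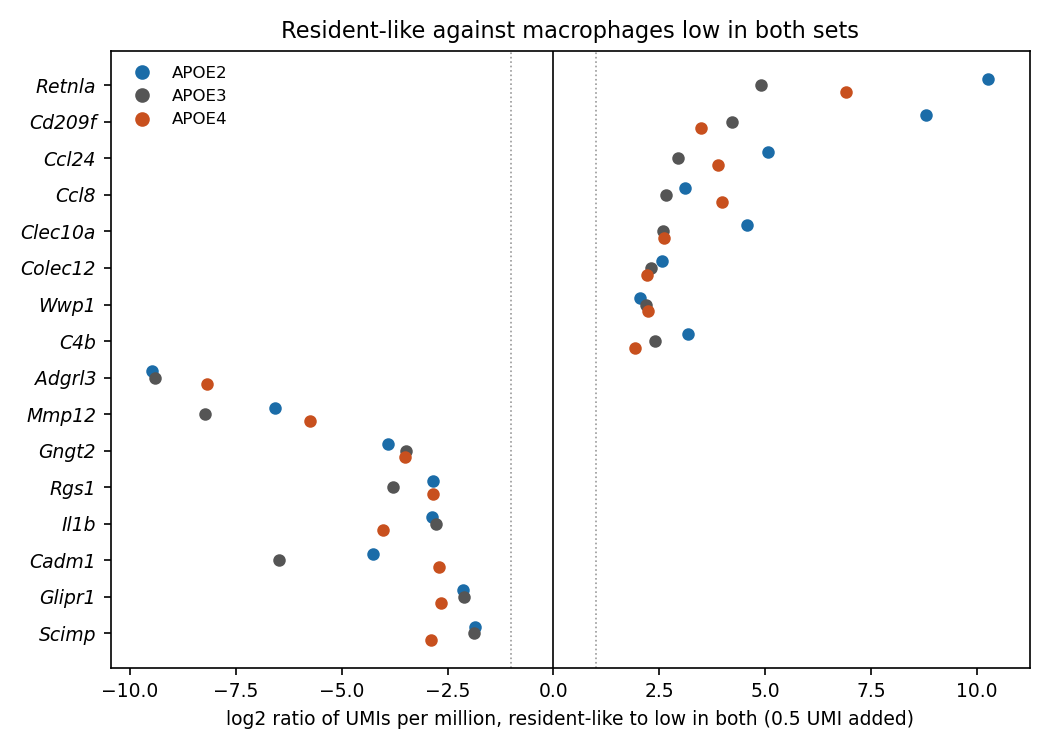
Log2 ratio of CPM in resident-like cells to that in low-both macrophages, 0.5 UMI added, for the 8 highest and 8 lowest genes by rank of their smallest ratio. Each point is 1 library and dotted lines mark a 2-fold difference; Adgrl3 lay between -9.47 and -8.19 and Wwp1 between 2.06 and 2.24.

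Foam-like macrophages, with at least 5 UMIs of Gpnmb, Spp1 and Fabp5 and fewer than 5 of the resident genes, could be set beside the members in the APOE2 library only. It held 38 of them, and the APOE3 and APOE4 libraries held 1 each. A further 5 APOE2 cells were high in both sets. In APOE2, 1098 of 6096 genes with at least 50 UMIs in both classes together (18%) were at least 2-fold higher in resident-like cells and 348 (5.71%) at least 2-fold lower. Foam-like cells were deeper, with a median of 14049.5 UMIs. The summed levels of certain genes of other cells and of dissociation were also higher in resident-like cells. Smooth muscle markers summed to 456 CPM in resident-like and 165 CPM in foam-like cells, with Tpm2 the most abundant, and 6 of 6 with enough UMIs were at least 2-fold higher. Fibroblast markers, with Dcn the most abundant, summed to 1771 against 1146 CPM (4 of 8 at least 2-fold higher), and erythroid genes, mostly Hbb-bs, to 265 against 25.1 CPM (3 of 3). Immediate early and dissociation genes summed to 25756 against 14419 CPM, and 8 of 19 were at least 2-fold higher. The part of these genes and of depth in the comparison was not tested.

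Of the 25 resident macrophage genes outside the rule, 22 were at least 2-fold higher in resident-like than in foam-like cells of APOE2, beside 18% of all genes. Another 1, Il10, was at least 2-fold lower, beside 5.71% of all genes. Mrc1 was listed at 1676 CPM against 67.8 CPM, a log2 ratio of 4.63 (4.21 to 5.08), and Pf4 at 3222 against 136 CPM, a log2 ratio of 4.57 (4.27 to 4.88). The 12 highest genes by the fixed rule were Cxcl13, Retnla, Cd209f, Bank1, Ednrb, Fcna, Chp2, Ccl24, Cmah, Vsig4, Ccl8 and Saa3. Vsig4, a complement receptor of tissue macrophages that binds C3b, stood at 106 CPM against 1.47 CPM. Ednrb, the endothelin receptor type B, was at 128 CPM in the members and at 0 in foam-like cells.

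In APOE2, 28 foam and lipid genes outside the rule passed the minimum. Of these, 20 were at least 2-fold lower in resident-like than in foam-like cells, beside 5.71% of all genes. Another 1, Cd36, was at least 2-fold higher, beside 18% of all genes. Lgals3, which encodes galectin-3, was listed at 274 CPM against 6932 CPM, a log2 ratio of -4.66 (-4.80 to -4.53). Trem2, a lipid receptor of foam cells, stood at 239 against 1114 CPM, a log2 ratio of -2.22 (-2.40 to -2.05). Lpl, lipoprotein lipase, stood at 44.9 against 1006 CPM, and the lysosomal protease Ctsl at 453 against 4646 CPM. Cd36, a receptor for oxidised lipoprotein, was higher in resident-like cells, at 454 against 149 CPM, a log2 ratio of 1.61 (1.31 to 1.92). The 12 lowest genes were Npy, Cd5l, Mmp12, Il7r, Syngr1, Itgax, Bhlhe40, Atp6v0d2, Gngt2, Fabp4, Lgals3 and Hist1h2ap. H2-Ab1 was near the same level in both classes, 753 and 673 CPM, with a log2 ratio of 0.16 (0.01 to 0.32).

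The members themselves varied widely in MHC class II. H2-Aa, H2-Ab1, H2-Eb1 and Cd74 together took a median of 0.0370% of the UMIs of an APOE2 member, 0.255% of those of an APOE3 and 0.140% of those of an APOE4 member, with 90th percentiles of 2.60%, 3.24% and 4.28%. A share of at least 1% was found in 32 of 197 APOE2 members (16.2%, 11.4 to 22.2), 22 of 80 APOE3 members (27.5%, 18.1 to 38.6) and 21 of 81 APOE4 members (25.9%, 16.8 to 36.9). This limit was chosen after the values were seen. In APOE2, Lyve1 was listed at 245 CPM (190 to 311) in members above it and 1132 CPM (1080 to 1186) in members below it. In APOE3 the same values were 484 CPM (379 to 608) and 573 CPM (508 to 644), and in APOE4 289 (208 to 390) and 360 (315 to 409), so the intervals overlapped in both. Ccr2, the receptor that brings monocytes into tissue, stood at 195 CPM in the APOE2 members above the limit and 26.7 CPM in those below it. In APOE3 it had 4 UMIs above and 3 below the limit, and in APOE4 none above and 6 below.

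Within a library, Lyve1 moved with some genes of the rule more than with others. Over the members, Spearman's rho of the CPM of Lyve1 with that of F13a1 was 0.63 among the 197 APOE2 cells, 0.53 among the 80 APOE3 cells and 0.61 among the 81 APOE4 cells. With Cd163 it was 0.17, 0.31 and 0.30, and with the MHC class II share -0.28, -0.18 and -0.04. These are descriptions over cells of 1 library that share its depth, and the rule, which uses the sum of the 5 genes, bears on the first 2 sets.

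**Figure D4:**
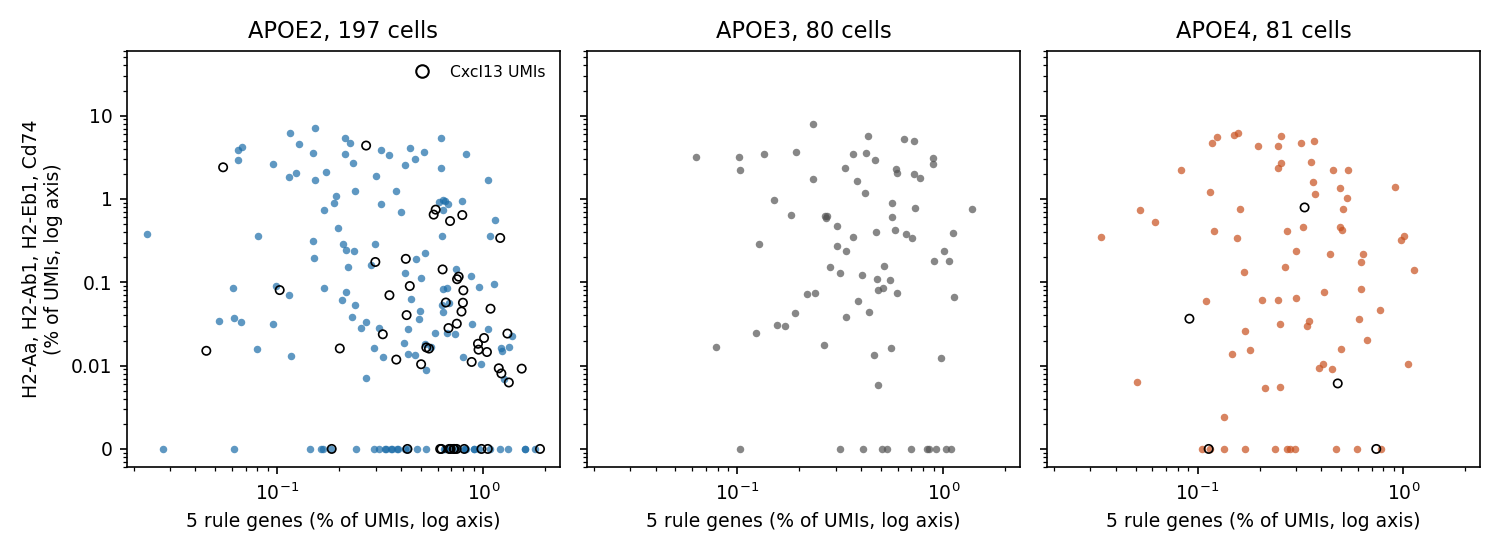
Each point is 1 resident-like cell, with the share of its UMIs from the 5 rule genes (x, log axis) and from H2-Aa, H2-Ab1, H2-Eb1 and Cd74 (y, log axis, 0 drawn at the bottom tick), in the APOE2, APOE3 and APOE4 libraries. Cells with Cxcl13 UMIs are open circles: 53 in APOE2, 0 in APOE3 and 5 in APOE4.

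Few members held many proliferation transcripts. At least 10 UMIs of 12 proliferation genes were found in 7 APOE2 members (3.55%, 1.44 to 7.18), 5 APOE3 members (6.25%, 2.06 to 14.0) and 9 APOE4 members (11.1%, 5.21 to 20.05), and these held 40.7%, 70.2% and 83.0% of such UMIs. At least 30 were found in 2, 3 and 8 members, so most of the APOE2 members lay near the limit of 10. Of those 2 APOE2 members, 1 also held 329 UMIs of Dcn and collagen genes. Top2a, a topoisomerase of dividing cells, was listed at 10.8, 59.4 and 178 CPM and was found in 8, 4 and 10 members. Mki67, which encodes Ki-67, stood at 16.2, 67.2 and 121 CPM. Of 7 proliferation genes with enough UMIs in APOE4 and APOE2, 7 were at least 2-fold higher in APOE4, beside 4.06% of all genes, with a median log2 ratio of 2.41.

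Between genotypes, single chemokine, complement, proliferation and monocyte genes stood more than 2-fold apart in the members. Among genes with at least 50 UMIs in both libraries together, APOE2 members were at least 2-fold higher than APOE3 members in 266 of 6133 genes (4.34%) and at least 2-fold lower in 124 (2.02%). Without the 10 APOE2 members with fibroblast transcripts, the first of these counts was 155. APOE4 members were at least 2-fold higher than APOE3 members in 183 of 4380 genes (4.18%) and at least 2-fold lower in 121 (2.76%). APOE4 members were at least 2-fold higher than APOE2 members in 258 of 6347 genes (4.06%) and at least 2-fold lower in 210 (3.31%). Many of these genes had few UMIs, and with at least 100 UMIs the 6 counts were 139, 48, 85, 44, 133 and 92 in the same order. The 3 pairs share libraries and are not independent of each other, and each ratio compares 2 libraries and not 2 genotypes. Of 15 core macrophage genes, 14 were within 2-fold in each of the 3 pairs, the exception being Mertk.

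The APOE2 members stood apart in Cxcl13 and Ccl6. Cxcl13, a chemokine that attracts B lymphocytes, was listed at 1250 CPM in APOE2, from 2310 UMIs in 53 of 197 members, at 0 in APOE3 and at 70.6 CPM, from 5 of 81 members, in APOE4. It was at least 267-fold higher in APOE2 than in APOE3, against a limit of 3 UMIs per library, and lower in APOE4 than in APOE2 with a log2 ratio of -4.15 (-4.56 to -3.76). In members thinned to 2000 UMIs, Cxcl13 was found in 22.2% of APOE2 cells (16.4 to 28.8), in 0 of 71 APOE3 cells, which by the limit of 3 counts allows a share of up to 4.23%, and in 2.56% of APOE4 cells (0.312 to 8.96). The share in smooth muscle cells was 0.0715%, 0.000% and 0.000%. Ccl6, a chemokine of myeloid cells, was widespread, in 161 of 197, 55 of 80 and 51 of 81 members, and stood at 2477, 342 and 460 CPM. Its log2 ratio was 2.85 (2.66 to 3.06) for APOE2 to APOE3 and -2.43 (-2.59 to -2.27) for APOE4 to APOE2. Ccl9, a related chemokine, stood at 589, 172 and 304 CPM.

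The APOE2 members with Cxcl13 transcripts had other levels of several genes than those without. They were deeper, with a median of 10938 UMIs against 7726.5 in APOE2 members without. Their level of Cd209d, a C-type lectin, was 168 CPM (138 to 203) against 37.0 (27.0 to 49.5), that of Vsig4 187 CPM (155 to 224) against 63.3 (49.9 to 79.1), and that of Lyve1 1510 CPM (1415 to 1609) against 734 (686 to 784). H2-Ab1 was 219 CPM (184 to 259) against 1030 (973 to 1088). Retnla was found in 4 of 53 members with Cxcl13 and 12 of 144 without, and in 3 of the 5 APOE4 members with Cxcl13. Its level in APOE2 was 20.6 CPM (11.0 to 35.3) in those with Cxcl13 and 934 CPM (880 to 989) in those without, and 3 cells held 83.0% of its UMIs. The APOE2 cells came from 6 mice, and whether these members came from 1 mouse or several cannot be told apart.

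Complement genes were higher in APOE2. Of 13 with enough UMIs in APOE2 and APOE3, 5 were at least 2-fold higher in APOE2 (C3, C6, Cfb, Cd55 and Serping1), beside 4.34% of all genes, and none was at least 2-fold lower, and the median log2 ratio was 0.92 against -0.04 over all genes. C4b was listed at 411, 258 and 140 CPM in APOE2, APOE3 and APOE4, with a log2 ratio of 0.67 (0.43 to 0.92) for APOE2 to APOE3 and -1.55 (-1.85 to -1.27) for APOE4 to APOE2. Cfb, factor B of the alternative pathway, stood at 93.1, 10.9 and 64.3 CPM. C3 and Serping1, the inhibitor of C1, moved with the fibroblast transcripts: without the 10 APOE2 and 2 APOE4 members that held these, C3 in APOE2 was 11.3 CPM in place of 72.0 and Serping1 4.75 CPM in place of 93.1, whereas C4b was 418 and Cfb 75.4 CPM.

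The other APOE2 genes with the highest interval bound over APOE3 were Saa3, Dcn, Mmp3, Sfrp2 and Ly6a. Dcn, Mmp3 and Sfrp2 are fibroblast genes, and without the members with fibroblast transcripts they stood at 15.4, 1.78 and 4.75 CPM in APOE2, in place of 809, 116 and 114 CPM. Saa3, an acute-phase protein, was at 355, 0 and 413 CPM, but all 328 UMIs of APOE4 were in 1 cell, against 20 members in APOE2. Ly6a, which encodes the surface antigen Sca-1, was at 113, 3.13 and 7.56 CPM and was found in 45 of 197, 2 of 80 and 4 of 81 members. The paper also counts Ly6a as a marker of fibroblasts. The part of fibroblast transcripts in the levels of Ly6a and Saa3 was not tested. Gda, guanine deaminase, stood at 221, 50.04 and 45.4 CPM, and Cd38, an enzyme that consumes NAD, at 153, 89.1 and 36.5 CPM. Their log2 ratios of APOE4 to APOE2 were -2.28 (-2.82 to -1.79) and -2.06 (-2.67 to -1.51).

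Uptake receptors had no common order between the libraries. Stab1, Mrc1 and Mertk were highest in APOE3, whereas Msr1, a scavenger receptor, was at 167, 117 and 111 CPM and Fcgr2b, a receptor for immunoglobulin G, at 389, 328 and 221 CPM. Stab1 was listed at 528, 958 and 444 CPM, with a log2 ratio of -0.86 (-1.01 to -0.71) for APOE2 to APOE3 and -1.11 (-1.30 to -0.92) for APOE4 to APOE3. Mrc1, with 1676, 2585 and 1510 CPM, gave -0.62 (-0.71 to -0.54) and -0.78 (-0.88 to -0.67). Mertk, a kinase receptor for apoptotic cells, was at 192, 385 and 141 CPM and gave -1.001 (-1.24 to -0.76) and -1.45 (-1.78 to -1.12). Gdf15, a stress-induced cytokine, was at 589, 1424 and 463 CPM, but came from 62 of 197, 24 of 80 and 20 of 81 members. Slc40a1, the iron exporter ferroportin, was at 5.95, 89.1 and 25.2 CPM. Among the 25 resident macrophage genes outside the rule, 2 were at least 2-fold higher in APOE2 than in APOE3 (Fcna and Cd209d), beside 4.34% of all genes. Only 1 was at least 2-fold lower (Ccl24), beside 2.02% of all genes, and the median log2 ratio was -0.03. In APOE4 the median was -0.39 relative to APOE3, with 6 of 23 genes above 0. Relative to APOE2 it was -0.29, with 4 of 25 genes above 0. Of these 25, 5 were at least 2-fold lower in APOE4 than in APOE2, beside 3.31% of all genes, and none was at least 2-fold higher.

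The lowest genes of APOE2 against APOE3 were Hist1h2ae, Hist1h2ap, Fblim1, Pla2g2d, Gm47283 and Gadd45g. The histone genes came from 6 and 12 APOE2 and 2 and 7 APOE3 members. Without the 3 cells with the most UMIs of the gene, the log2 ratio of Hist1h2ae reversed. Fblim1, a filamin-binding protein, was at 18.4 CPM in APOE2, 105 in APOE3 and 110 in APOE4, and APOE2 stood at -2.51 (-3.15 to -1.89) on the log2 scale relative to APOE3. Fblim1 was spread over 23 of 197, 34 of 80 and 35 of 81 members. Pla2g2d, a secreted phospholipase, was at 25.4, 119 and 52.9 CPM.

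In APOE4 the highest genes against APOE3 were Saa3, Dcn, Eif4e, Ell2, Slc12a2 and Hist1h2ap. Eif4e, the protein that binds the cap of messenger RNA, was at 83.4 CPM in APOE2, 56.3 in APOE3 and 613 in APOE4, a log2 ratio of 3.44 (2.95 to 3.97) for APOE4 to APOE3, and was found in 89, 25 and 52 members. Ell2, an elongation factor of RNA polymerase II, was at 34.6, 9.38 and 126 CPM, in 38, 6 and 33 members. Slc12a2, an ion transporter, came from 5 APOE4 members, and the 3 with the most held 97.7% of its UMIs. Without the 3 cells with the most UMIs of the gene, the log2 ratios of Saa3 and Slc12a2 to APOE3 reversed, as did that of Slc12a2 to APOE2. The lowest genes of APOE4 against APOE3 were Gm47283, Ccn1, Gdf15, Nr3c2, Mertk and March1. Against APOE2, the highest were the histone genes Hist1h2ap, Hist1h2ab, Hist1h1b and Hist1h2ae, with Top2a and Slc12a2, and the lowest were Cxcl13, Mmp3, Ly6a, Ccl6, Gda and Cd38.

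Inflammatory genes were highest in APOE4 members for some of the list. Of 17 with enough UMIs in APOE4 and APOE2, 4 were at least 2-fold higher in APOE4 (Tnf, Nlrp3, Ptgs2 and Il1a), beside 4.06% of all genes, and none was at least 2-fold lower, with a median log2 ratio of 0.24 against -0.04 over all genes. Tnf, tumour necrosis factor, was listed at 367, 611 and 890 CPM in APOE2, APOE3 and APOE4, and Nlrp3, the sensor of the inflammasome, at 118, 96.9 and 324 CPM. The neutrophil attractant Cxcl1 was at 271, 134 and 649 CPM, and Hbegf, a growth factor, at 34.1, 73.5 and 180 CPM. Immediate early and dissociation genes had a median log2 ratio of 0.34 for APOE4 to APOE2. Of 19 such genes 2, Klf4 and Fosb, were at least 2-fold higher in APOE4, beside 4.06% of all genes. For APOE4 to APOE3 the median was -0.25, with none of 19 at least 2-fold apart. The summed level of these genes was 25756, 35400 and 30470 CPM in APOE2, APOE3 and APOE4, so that it was highest in APOE3. Fosb was at 269, 408 and 664 CPM. The part of the digestion of the tissue in these levels was not tested.

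None of 11 scavenger and endocytic receptors with enough UMIs was at least 2-fold apart between APOE2 and APOE3. Of 6 antigen presentation genes none was at least 2-fold apart in any pair, and all 6 were lower in APOE2 than in APOE3, with a median log2 ratio of -0.67. Of 13 interferon genes, 2 were at least 2-fold higher in APOE2 than in APOE3 (Rsad2 and Ifit1), beside 4.34% of all genes, and none was at least 2-fold lower, and Ifi27l2a was at 2884, 1742 and 1850 CPM. Of 23 foam and lipid genes, 3 were at least 2-fold higher in APOE2 than in APOE3 (Vim, Lgals3 and Abcg1), beside the same 4.34%, and 1, Apoe, lower, beside 2.02%. Of 21 such genes in APOE4 and APOE3, 3 were at least 2-fold higher in APOE4 (Vim, Lgals3 and Npc1), beside 4.18% of all genes. Vim, a filament protein that fibroblasts also express, was at 1090, 514 and 1335 CPM, so that it was highest in APOE4. Without the members with fibroblast transcripts it was at 962 CPM in APOE2, which is under 2-fold of APOE3, and at 1337 CPM in APOE4. Lgals3 was at 274, 92.3 and 250 CPM. Plin2, which coats lipid droplets, was at 662, 466 and 377 CPM, with a log2 ratio of 0.51 (0.32 to 0.69) for APOE2 to APOE3 and -0.81 for APOE4 to APOE2, with an upper bound of -0.63.

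Of 12 monocyte genes, 6 had enough UMIs in APOE2 and APOE3, of which 4 were at least 2-fold higher in APOE2 (Fn1, S100a4, S100a6 and Ccr2), beside 4.34% of all genes, and none was at least 2-fold lower. The 1 with a lower level in APOE2, Itga4, an integrin subunit, was at 90.4 CPM in APOE2 and 116 in APOE3. Of 4 monocyte genes with enough UMIs in APOE4 and APOE3, 2 were at least 2-fold higher in APOE4 as well, beside 4.18% of all genes. These were S100a4, at 239, 75.1 and 218 CPM, and S100a6, at 545, 189 and 402 CPM. Without the members with fibroblast transcripts, S100a6 was at 351 CPM in APOE4, which is under 2-fold of APOE3. In APOE2 S100a6 was then at 423 CPM. The 12 monocyte genes were not limited to macrophages. Outside the macrophage gate they summed to 3090, 4222 and 3672 CPM in APOE2, APOE3 and APOE4, with S100a6 the most abundant. The part of fibroblast transcripts in Fn1, S100a4 and Ccr2 was not tested. Fn1, at 64.4, 6.25 and 7.56 CPM, and Ccr2, at 52.0, 10.9 and 7.56 CPM, were low in both APOE3 and APOE4. Ccr2 itself was found in 15, 3 and 1 members. Of the haem and iron genes, 1 of 11 (Slc40a1) was at least 2-fold lower in APOE2 than in APOE3, beside 2.02% of all genes, and of the efferocytosis genes 1 of 13 (Mertk), with none at least 2-fold higher in either list. Of the growth factor genes, 1 of 10 (Hbegf) was at least 2-fold lower, beside the same 2.02%. Of 15 stress and oxidant genes none was at least 2-fold apart between APOE2 and APOE3. For APOE4 to APOE3, 2 of 15 were at least 2-fold higher, beside 4.18% of all genes, and 0 lower, with a median log2 ratio of 0.21. Haemoglobin and other erythroid genes summed to 265, 15.6 and 106 CPM, B lymphocyte markers to 187, 233 and 258 CPM, of which Ighm gave 139, 219 and 194, and neutrophil markers to 66.6, 71.9 and 73.1 CPM. Mast cell markers were at 1.083, 0 and 0 CPM and adipocyte markers at 0, 0 and 1.26 CPM. The part of free RNA in these low levels was not tested.

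**Figure D5:**
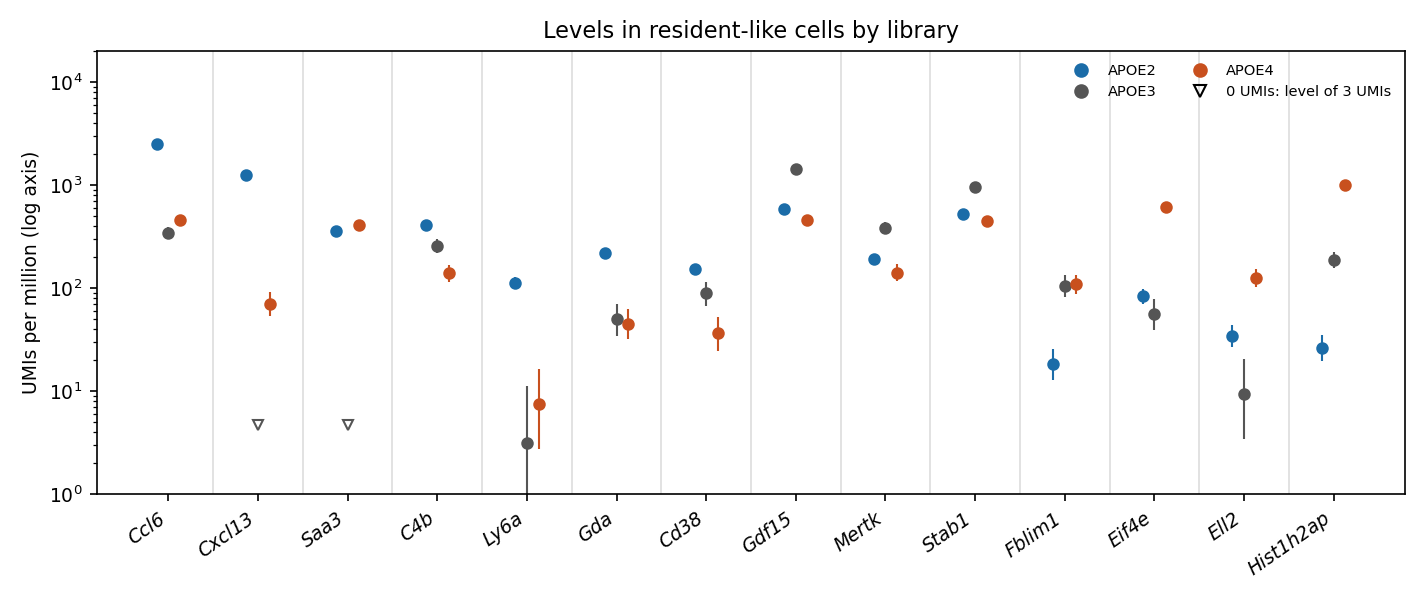
Level in CPM (log axis) of 14 genes in resident-like cells of the APOE2, APOE3 and APOE4 libraries, with 95% counting intervals; open triangles mark the level of 3 UMIs where none was found. Each point is 1 library; Ccl6 and Cxcl13 were highest in APOE2 (2477 and 1250), Gdf15 and Stab1 in APOE3 (1424 and 958), and Eif4e and Hist1h2ap in APOE4 (613 and 998).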

How the data were processed

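Cells of 3 droplet libraries, 1 for each genotype, were analysed. The deposited values are raw UMI counts of 32285 genes per cell barcode. Per the file headers, the authors made them with Cell Ranger 7.0.1, and the genome was mm10. For every class, the UMIs of its cells were added up within a library and expressed as CPM. Levels have exact Poisson, shares exact Clopper-Pearson and log2 ratios exact conditional binomial intervals, all at 95% and for counting error only. For counts past 2-fold, 0.5 UMI was added to each count. For a fold against 0 UMIs, or the limit of a share of 0, 3 counts stood in for the 0. The ratios were tested on simulated counts. The cells, gene lists and comparisons were chosen with earlier results of these data known.

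Named genes, besides 31 lists, were the 8 highest and lowest against low-both macrophages and the 12 against foam-like cells by the smallest log2 ratio over the libraries used, and the 6 per genotype pair by the interval bound nearest to no difference, all with at least 100 CPM in the higher class or in 1 library and none from the rule. Doublets were kept, except in the alternative without the highest Scrublet scores (0.8% of cells per 1000 cells). Alternatives were other limits on cells, resident, foam and smooth muscle transcripts, other gene minimums, the mean of each cell's CPM, centring on the median gene, leaving out each library, and 2 chosen after seeing the data, without members with fibroblast transcripts and without the 3 cells with the most UMIs of a gene. Gene symbols given to more than 1 identifier were not used. Calculations used Python 3.11.15, numpy 2.4.6, scipy 1.17.1, pandas 2.3.3 and scanpy 1.11.5.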

Additional observations from a re-analysis of the deposited data

Results flagged for a closer look

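Some genes stood in opposite orders between resident-like cells and low-both macrophages in different libraries, with both counting intervals beyond 0.3 on the log2 scale. The differences between libraries were not tested. Hmox1, haem oxygenase 1, had log2 ratios of 1.81 in APOE2 and 1.23 in APOE4 and of -0.59 in APOE3. Igf1, a growth factor, had 0.82 in APOE3 and -0.64 in APOE4. S100a4 had 0.73 in APOE2, 1.75 in APOE4 and -1.51 in APOE3. Serping1 had 0.76 in APOE2, -4.47 in APOE3 and -2.88 in APOE4, and Dcn 0.59, -6.82 and -1.73 in the same libraries. Among the members, fibroblast transcripts lay mostly in 10 APOE2 and 2 APOE4 cells. In low-both macrophages of APOE3 and APOE4, fibroblast markers summed to 3603 and 4026 CPM, and their part in these ratios was not tested. The proliferation genes Top2a and Stmn1 had 6.67 and 3.27 in APOE4 and -1.57 and -1.26 in APOE2, from few cells. The low-both macrophages of APOE4 held 0 UMIs of Top2a, so that its 6.67 depends on the 0.5 UMI added, and its lower 95% bound was 3.76.

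Of 1749 barcodes outside the filter on cells, 4 also met the gate and the rule, 3 in APOE2 and 1 in APOE4.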

How the results depend on the processing

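The 6 log2 ratios of shares kept their direction and moved by less than their counting intervals under every alternative run. Counts of genes past 2-fold stayed within 1.5 times, with these exceptions. Some followed the minimum on UMIs, with 139 and 48 genes (APOE2 to APOE3, higher and lower), 85 and 44 (APOE4 to APOE3) and 133 and 92 (APOE4 to APOE2) at 100 UMIs, and 75 and 24 against low-both macrophages at 50 UMIs. With the mean of each cell's CPM, 192 genes were lower in APOE2 than in APOE3. Without members with fibroblast transcripts, chosen after seeing the data, 155 were higher in APOE2 than in APOE3. Leaving out a library gave 194 to 241 genes higher and 84 to 110 lower than in low-both macrophages, since 2 libraries then had to pass. Without the 3 cells with the most UMIs of a gene, chosen after seeing the data, 4 log2 ratios reversed: Hist1h2ae (APOE2 to APOE3) became 1.22, Saa3 (APOE4 to APOE3) -0.27, and Slc12a2 -0.32 (APOE4 to APOE3) and -0.94 (APOE4 to APOE2). Of the 36 log2 ratios of named genes between libraries, 14 more moved beyond their counting intervals, as did 9 with the mean of each cell's CPM and 5 without members with fibroblast transcripts. Of these 36 and the 16 median log2 ratios to low-both macrophages, 11 moved at 3 UMIs of the resident genes, 8 at 10 UMIs and 9 at a share of 0.05%, where a median counted as moved outside the range of the 3 libraries. Of the levels of the rule genes, 10 moved in the UMIs that the rule did not use and 5 did not. The planned comparison with foam-like cells in all 3 libraries was not run, because 2 libraries held 1 such cell each, and APOE2 alone, with a minimum of 50 UMIs in place of 20, was used, chosen after seeing the data. No paired analysis was possible because each genotype has 1 library. Depth limits values of genes under 50 UMIs, and 12, 9 and 3 members held under 2000 UMIs.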
